A study of Drosophila melanogaster with 12 samples.

Results

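Transcript levels around dusk were compared with those around dawn in the heads of clock-deficient fruit flies held in constant darkness (DD). The comparison took the 3 DD arrays of CT6, CT10 and CT14 as the hours around dusk, and the 3 DD arrays of CT18, CT22 and CT2 as the hours around dawn. These were 6 of the 12 arrays of the series, and each array carried 13966 probe sets after 44 control probe sets were left out. CT0 is the clock hour of lights-on on the earlier days, so the first group holds the late subjective day and the start of the subjective night. The 6 arrays of the preceding light-dark day (LD) with the same clock hours, ZT6, ZT10 and ZT14 against ZT18, ZT22 and ZT2, were used to show where DD differed.

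The flies of every array were y w; tim01 adults, in which timeless is inactivated beside the yellow and white mutations. There was no fly with an intact timeless gene among the samples, so no value below compares genotypes. The flies had spent 3 days in 12 h of light and 12 h of darkness before sampling at 4 h intervals through an LD day and then a DD day. About 100 to 200 heads were pooled per time point and about 25 µg of total RNA was labelled for each array; the labels give neither the sex nor the age of the flies. Each time point was sampled once, so the 3 arrays of a group are 3 different hours. Errors and p-values therefore hold real change between the hours of a group together with technical differences. In whole heads, fewer cells of a type and less RNA per cell cannot be told apart.

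In flies with a working clock, the CLOCK and CYCLE proteins switch on period and timeless, and the PERIOD and TIMELESS proteins then accumulate and shut CLOCK and CYCLE off. Further feedback runs through vrille, Pdp1 and clockwork orange. Without TIMELESS, PERIOD does not accumulate and the loop stops, so daily changes in such flies are generally taken to follow light. A transcript that follows light with a delay would be highest, or lowest, some hours after noon, and the split around dusk and dawn asks whether any such course remained once light was removed.

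Values are log2 signals after RMA, a method that corrects background, brings arrays to a common scale and summarises the probes of a probe set, so a difference of 1 is a 2-fold difference. The 6 DD arrays correlated across probe sets at 0.992 to 0.996. The markers of a fly head were bright on all 6 DD arrays: Arr2, the major arrestin of photoreceptors, ranged between 11.85 and 12.07, and the light-activated channel gene trp between 9.22 and 9.49. Arrays of different groups were no further apart than arrays of one group. The SD of the difference across probe sets was 0.158 to 0.214 (median 0.176) for the 9 pairs of a dusk and a dawn array, 0.155 to 0.192 for the 3 dusk pairs and 0.147 to 0.214 for the 3 dawn pairs. The lowest value among dawn pairs was that of CT18 with CT22, and the 2 dawn pairs that include CT2 had 0.207 and 0.214.

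No transcript passed the test for a difference between the hours around dusk and the hours around dawn in DD. With limma's moderated test and Benjamini-Hochberg adjustment over all probe sets, 0 of 13966 (0%) had an adjusted p under 0.05, and the smallest adjusted p was 0.966. At an unadjusted p under 0.05 there were 679 probe sets, 340 of them with a higher and 339 with a lower mean around dusk, where 5% of 13966 is 698. The median of all changes, dusk minus dawn, was -0.000667 and the median size of a change was 0.061. In LD, the same hours gave 3 probe sets past the threshold (0.0215%), and 898 had an unadjusted p under 0.05.

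**Figure D1:**
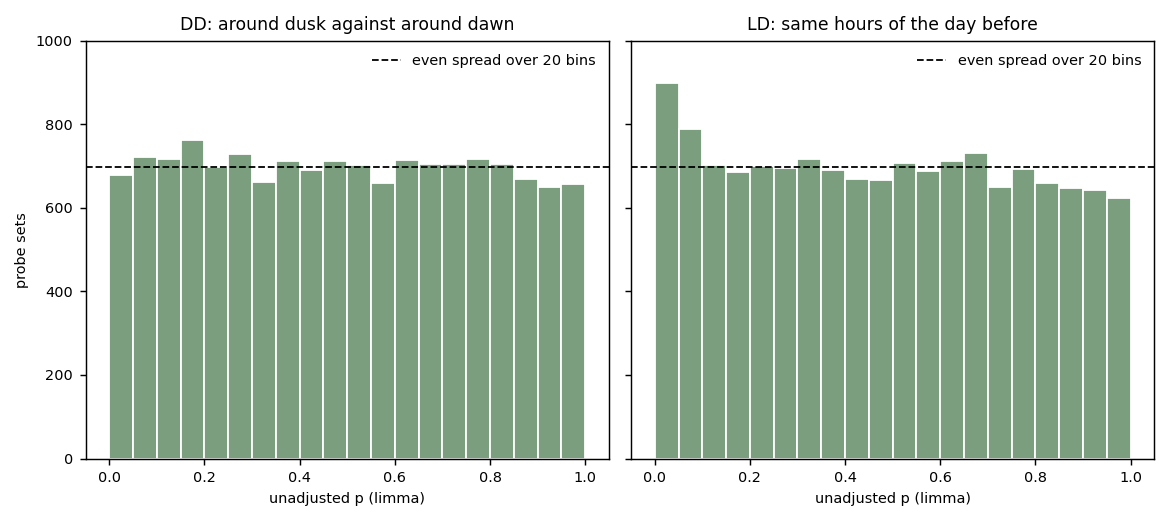
Number of probe sets (vertical axis) by unadjusted limma p in 20 bins (horizontal axis), for around dusk against around dawn in DD (left) and for the same hours in LD (right). The dashed line is the count an even spread would give, 698.3 per bin; the first DD bin holds 679 probe sets and the first LD bin 898.

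The intervals bound how large a dusk-to-dawn difference in RMA signal these arrays leave room for. Differences of dim probe sets are compressed in this signal, so for them the bound does not hold for the transcript itself. The median SE of a DD change was 0.0848, and the median 95% interval reached 0.18 to either side of the estimate. For 13731 probe sets (98.3%), the whole 95% interval of the DD change lay within 0.5 of 0, a fold of 1.41. For 13935 (99.8%) it lay within 1. Counting single arrays, 625 probe sets had all 3 dusk arrays above all 3 dawn arrays (4.48%) and 679 had all 3 below (4.86%), together 1304 (9.34%). An exact permutation test of 3 against 3 arrays cannot give a two-sided p under 0.10.

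The 10 genes with the smallest p on the higher side did not pass, and their differences ran from 0.25 to 0.52, folds of 1.19 to 1.43. First among them was CG6951, with 3.31, 3.46 and 3.52 at CT6, CT10 and CT14, against 3.03, 3.07 and 3.07 at CT18, CT22 and CT2. All 3 dusk arrays lay above all 3 dawn arrays, and the difference was 0.37 ± 0.09 (SE, 95% interval 0.19 to 0.55). The gene raw, which restrains Jun kinase signalling in the closing of the embryonic epidermis, had 5.01, 5.21 and 5.02 around dusk, against 4.75, 4.84 and 4.68 around dawn. Its groups did not overlap either, with a difference of 0.32 ± 0.08, but a second, dimmer probe set of raw had -0.17.

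GluClalpha, the glutamate-gated chloride channel of neurons, had the largest difference of these 10, 0.52 ± 0.13 (SE). Its values were 3.90, 3.44 and 4.12 around dusk, against 3.21, 3.45 and 3.25 around dawn, so CT10 lay just below CT22 and the groups overlapped by 0.01. Without CT10 the difference of GluClalpha was 0.71, and its adjusted p of 0.0638 (limma) was the smallest of any probe set in that fit. The CT10 array also moved the background: without it, 1039 probe sets had an unadjusted p under 0.05 instead of 679, and still 0 passed. It had the lowest 3′ over 5′ signal difference of the control transcripts, a measure of RNA and labelling quality, at 2.29 against 2.51 to 2.69 on the other 5 DD arrays. A lower value of this measure means less loss of 5′ signal, and the LD arrays had 2.66 to 2.98. With this measure as a covariate, 0 probe sets passed in DD and 765 had an unadjusted p under 0.05 (limma). Its part in the change seen without CT10 was not tested.

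The other 7 of the 10 were lncRNA:CR15061 (0.26), CG32809 (0.29), the deacetylase gene Sirt7 (0.25), CG15140 (0.26), the LIM-homeodomain factor tup (0.29), CG8176 (0.37) and Cyp6a20 (0.29), a cytochrome P450 known for its link to male aggression. In each of these 7 all dusk arrays lay above all dawn arrays, as in 4.48% of all probe sets. The choice by smallest p on the same arrays favours such separation. CG32809 was contradicted by its 2 brighter probe sets, which had -0.18 and -0.11. Cyp6a20 was among the brighter ones, with 6.81, 6.48 and 6.73 around dusk, against 6.31, 6.44 and 6.38 around dawn. The gap between its groups was 0.03, since CT10 lay only just above CT22.

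On the lower side, the 10 genes with the smallest p had differences of -0.37 to -0.25, again with none passing, and in all 10 the groups did not overlap. Choosing by smallest p on the same arrays favours such separation, which 4.86% of all probe sets had in this direction. CG10669 had 4.61, 4.52 and 4.83 around dusk, against 4.95, 5.01 and 4.99 around dawn, a difference of -0.33 ± 0.08 (SE, 95% interval -0.50 to -0.16). The 3 dawn arrays of CG10669 lay close together, and the lowest value came at CT10. CG13364 had the largest difference in size, -0.37, with 6.29, 6.05 and 6.18 around dusk, against 6.70, 6.55 and 6.36 around dawn. Its highest array was CT18, and CT6 lay 0.07 below CT2, the nearest pair across the groups.

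Sox14, a transcription factor induced by ecdysone at metamorphosis, had 5.48, 5.62 and 5.54 around dusk, against 5.88, 5.69 and 5.88 around dawn, a difference of -0.27. TwdlE, of the Tweedle family of cuticle proteins, had -0.27, and the serpin gene Spn100A had -0.30. The remaining 5 were CG9308 (-0.27), CG15144 (-0.29), Uxt (-0.26), CG12994 (-0.25) and CG15515 (-0.26). Of these 10 genes 5 had a mean below 4 over the 12 arrays, and of the 10 on the higher side 6 did, where all arrays had medians of 4.10 to 4.14. The files give no detection calls, so whether such dim probe sets rise above background is not known.

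**Figure D2:**
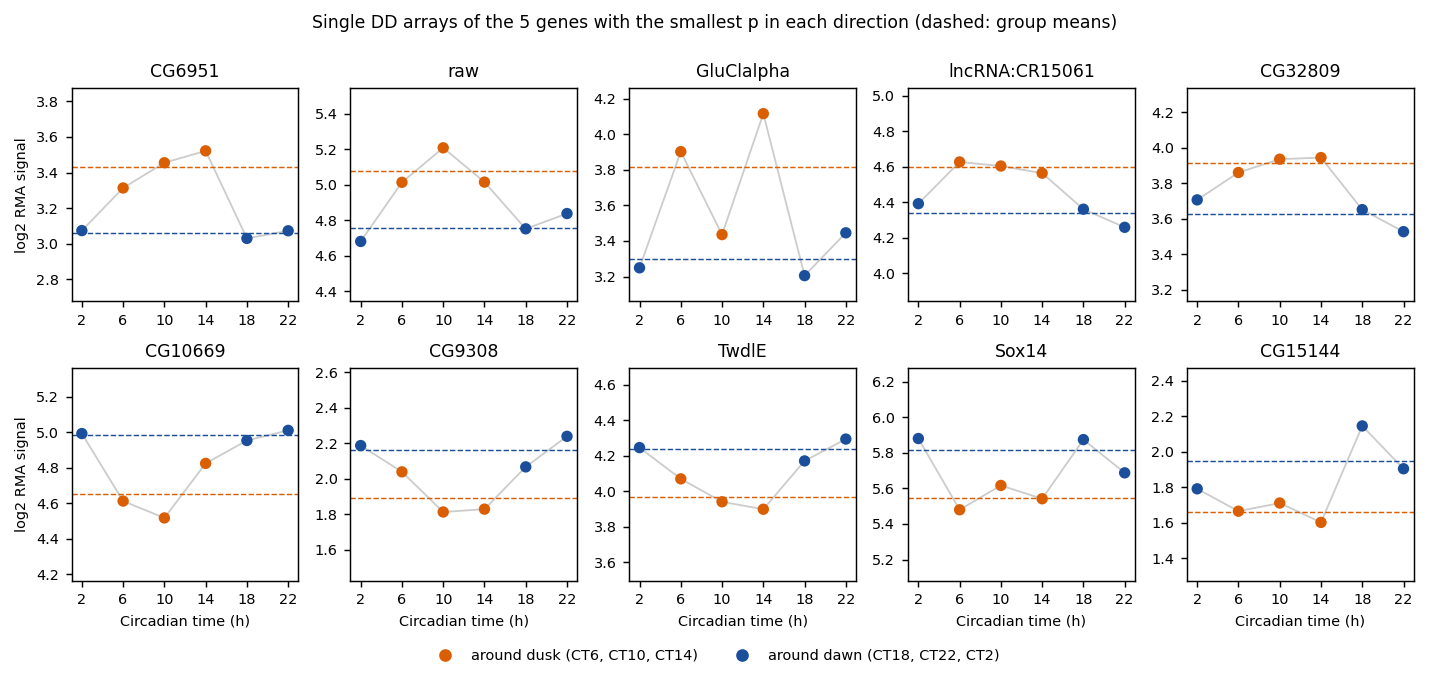
Log2 RMA signal (vertical axes, each spanning 1.2) of 10 genes on the 6 DD arrays by circadian time in h (horizontal axes), with the 5 smallest p on the higher side in the upper row and on the lower side in the lower row. Points are single arrays, coloured for around dusk and around dawn, and dashed lines are the group means. In 9 of the 10 panels the groups do not overlap, which the choice by smallest p favours, and GluClalpha is the exception.

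On the LD arrays, the signs of these leading genes were mixed. The LD arrays entered their choice only through the shared estimate of the spread. Of the 10 on the higher side, 6 were also higher around dusk in LD, beside 7300 of all 13966 probe sets. The median LD change of these 10 was 0.03. None of them had non-overlapping LD groups in that direction, beside 6.97% of all probe sets. Of the 10 on the lower side, 4 were also lower in LD, with a median of 0.00. Sox14 (-0.13 in LD) and CG15515 (-0.15 in LD) were lower in both days with non-overlapping groups in both. Over all probe sets, 5.13% had all LD dusk arrays below the LD dawn arrays. None of the 20 had an unadjusted p under 0.05 in LD (limma), beside 898 of all 13966 probe sets.

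The widest gaps between non-overlapping DD groups brought in a few further genes. crq encodes croquemort, the CD36-family receptor with which haemocytes take up dead cells. It had the largest difference of any probe set on the higher side, with 5.76, 5.33 and 5.59 around dusk, against 4.94, 4.85 and 5.14 around dawn, a difference of 0.58 ± 0.18 (SE, 95% interval 0.21 to 0.96). The lowest dusk array of crq stood 0.19 above the highest dawn array, and in LD its change was 0.015, with overlapping groups. grp, the fly Chk1 checkpoint kinase, had a DD difference of 0.28 and an LD difference of 0.29. TwdlM, another Tweedle gene, had 0.22 in DD, and its second probe set had -0.05.

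On the lower side the widest gap was that of Acp32CD, which encodes a seminal fluid protein, with 1.91, 1.92 and 1.84 around dusk, against 2.23, 2.19 and 2.17 around dawn. This is near the bottom of the scale, where the lowest value of the table is 1.518. CG9837 had 4.95, 4.94 and 4.93 around dusk, against 5.13, 5.40 and 5.16 around dawn. CG7029 (-0.27), CG18596 (-0.22) and CG16894 (-0.21) completed the 5 with the widest gaps. A second probe set pointed the other way for both CG7029 (0.19) and CG18596 (0.02).

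The transcripts of the clock itself showed no difference that passed the test. For tim, the mutated gene, the brightest probe set had 6.92, 6.62 and 6.90 around dusk, against 6.74, 6.65 and 6.79 around dawn, a difference of 0.09 ± 0.09 (SE, 95% interval -0.10 to 0.28). Its 2 other probe sets had 0.07 and -0.01. The position of these probe sets on the gene was not looked up, and the signal is no check of the mutation. per, the partner gene of tim, had 4.66, 4.81 and 4.73 around dusk, against 4.82, 4.92 and 4.85 around dawn. All per values around dusk lay below those around dawn, by 0.13 on average. The same held for cry, the blue-light receptor that resets the clock, with 6.60, 6.60 and 6.62 around dusk, against 6.68, 6.73 and 6.67 around dawn, a difference of -0.09.

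Of the 12 clock genes measured, 7 had a positive and 5 a negative difference, with a median of 0.018, beside 49.6% positive and a median of -0.001 over all probe sets. Of the 12, 2 had all dusk arrays below and 0 had all above the dawn arrays, beside 4.86% and 4.48% of all probe sets. Without CT2 the split of signs was again 7 and 5, with a median of 0.085. The feedback genes did not share a direction: vri, a repressor of Clk, had 0.17, Pdp1, its activator counterpart, had 0.02, and cwo, which represses targets of CLOCK and CYCLE, had -0.19 (0.04 for its dimmer probe set). Clk had 0.02 and cyc 0.11. jet encodes the F-box protein through which light brings about the breakdown of TIMELESS. It had 4.22, 4.16 and 4.01 around dusk, against 3.82, 4.12 and 3.75 around dawn, a difference of 0.23 with an unadjusted p of 0.0224 and an adjusted p of 0.966 (limma). Pdf, the neuropeptide of the lateral clock neurons, had 0.18 in DD and 0.19 in LD, with 6.66, 6.66 and 6.44 around dusk in DD, against 6.33, 6.37 and 6.51 around dawn. The kinase gene dco, known as doubletime, had -0.10, and slmb, which takes part in the breakdown of PERIOD, had -0.06.

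In a set of 12 genes reported elsewhere as clock outputs in heads, 7 differences were positive and the median was 0.002. Non-overlapping DD groups were found in 0 of the 12, beside 9.34% of all probe sets. Slob and Usp8 are named after their values were seen. Slob, which encodes a protein that binds the Slowpoke potassium channel, had 7.82, 7.94 and 7.87 around dusk in DD, against 7.72, 7.76 and 8.11 around dawn. The dusk values of Slob lay inside the span of its dawn values. Usp8 (CG5798 in older lists), a deubiquitinating enzyme, had a DD difference of 0.00 and an LD difference of 0.79.

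The genes of light detection were nearly uniform in sign but small in size. In photoreceptors, rhodopsin acts through a Gq protein and phospholipase C to open the TRP and TRPL channels, and arrestins end the response. The rhodopsin genes ninaE and Rh2 to Rh6 and the phospholipase C gene norpA had no probe set with 1 symbol, so the list leaves them out. Of 16 phototransduction genes measured, 15 were higher on average around dusk in DD, with a median difference of 0.098, beside 49.6% positive and a median of -0.001 over all probe sets. None passed the test and 0 had an unadjusted p under 0.05. In LD, 11 of the 16 were positive with a median of 0.052. These genes share cells and arrays, so their signs are not independent.

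The scaffold gene inaD, which holds the cascade together in the light-sensing membrane, had 8.81, 8.65 and 8.73 around dusk, against 8.44, 8.59 and 8.53 around dawn. All 3 dusk arrays of inaD lay above the dawn arrays, with a difference of 0.21 ± 0.14 (SE). Arr2 was the other gene with non-overlapping groups, at 12.01, 11.92 and 12.07 around dusk, against 11.87, 11.85 and 11.87 around dawn, a difference of 0.14. These 2 of 16 genes stand beside 4.48% of all probe sets. The Arr2 difference was 0.08 when the arrays were quantile-normalized once more. Gbeta76C, the G-protein beta subunit of the eye, had 0.20, and the channel gene trpl had 0.14.

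The exception in sign was laza, a lipid phosphatase gene of the photoreceptor phosphoinositide cycle, with 6.23, 6.40 and 6.40 around dusk, against 6.66, 6.50 and 6.39 around dawn, a difference of -0.18. By array, the mean level of the 16 genes relative to their 12-array means was 0.0934, 0.0033 and 0.0892 at CT6, CT10 and CT14, against -0.0497, -0.0202 and -0.0153 at CT18, CT22 and CT2. The value of CT10 lay closer to the dawn arrays than to the other dusk arrays. Retinoid and eye pigment genes showed no such common sign, with 8 of 16 positive and a median of -0.001.

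The 2 corneal lens genes measured differed in sign. Cpr72Ec, a cuticle protein of the lens, had 10.33, 10.31 and 9.91 around dusk, against 9.78, 9.75 and 9.84 around dawn, a difference of 0.39 ± 0.16 (SE, 95% interval 0.06 to 0.73) with an unadjusted p of 0.0238 and an adjusted p of 0.966 (limma). Its fitted 24 h curve peaked at CT8.31 in DD and at ZT4.82 in LD. retinin, the other lens gene, had 9.46, 9.28 and 10.12 around dusk, against 10.03, 10.11 and 9.65 around dawn. Its groups overlapped, with CT14 the highest array and CT10 the lowest. The whole DD range of retinin, 0.84, thus lay within the dusk group.

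Antimicrobial genes differed in their high hours. Drs, which encodes the antifungal peptide drosomycin, had 8.36, 7.93 and 7.11 around dusk, against 6.95, 7.11 and 8.37 around dawn. The high arrays were CT2, CT6 and CT10, so each group held high and low hours and the difference was 0.32 ± 0.33 (SE). Def, the defensin gene, was highest at CT18 (7.17) and CT14 (7.04) and lowest at CT10 (6.44), with a difference of -0.24. CecB, a cecropin gene, was highest at CT14 (3.27), with a difference of 0.19, an unadjusted p of 0.0345 and an adjusted p of 0.966 (limma). Of the 10 immune effector and recognition genes, 4 were positive and the median was -0.027. On 6 of the 10, CT2 was the highest DD array, where it was the highest for 18.8% of all probe sets. Without CT2, 7 of the 10 were positive and the median was 0.098.

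**Figure D3:**
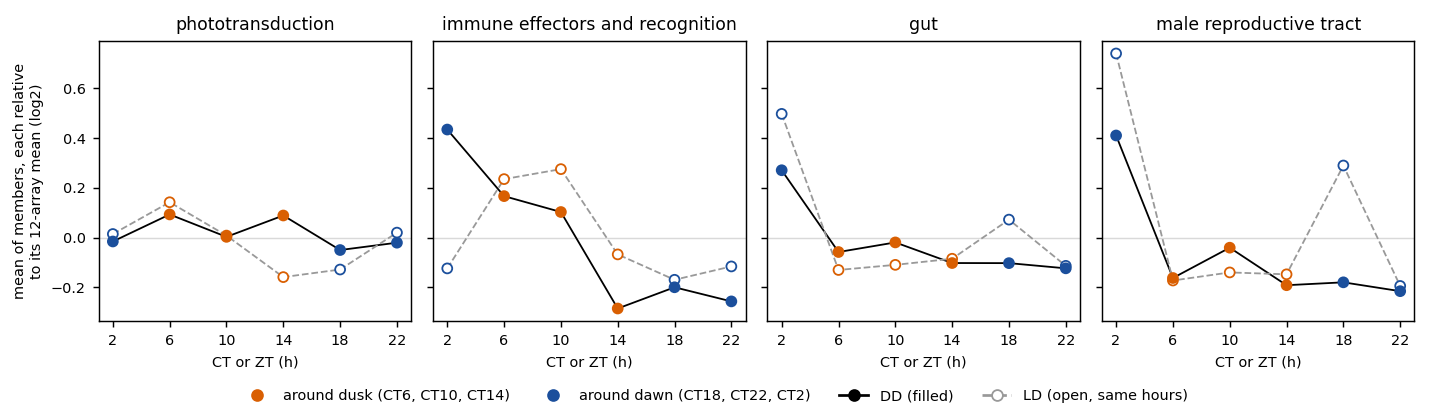
Mean level of 4 gene lists on each array, with every member set relative to its own mean over the 12 arrays (log2, vertical axis), by CT or ZT in h (horizontal axes). Filled points on solid lines are DD arrays and open points on dashed lines LD arrays, coloured for around dusk and around dawn; the gut and male reproductive tract lists stand at 0.271 and 0.411 on CT2 and below 0 on the other 5 DD arrays.

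Among detoxifying enzymes, 49 of 83 cytochrome P450 genes had a positive difference, with a median of 0.017 and 0 passing. In 7 of the 83 all dusk arrays lay above all dawn arrays and in 2 all lay below, beside 4.48% and 4.86% of all probe sets. Cyp6a20 and Cyp6a21, both of the Cyp6a family, had 0.29 and 0.30. Cyp6a21 had 3.41, 3.67 and 3.47 around dusk, against 3.14, 3.26 and 3.27 around dawn. Both had a smaller difference in LD, 0.00 and 0.16, and the difference between the days did not pass (adjusted p = 0.999 for each, limma). Of 34 glutathione S-transferases 19 were positive in DD with a median of 0.013. In LD the same genes had 23 positive and a median of 0.097.

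Odorant-binding proteins carry odorants to the receptors of the antenna and are also made elsewhere in the head. Of 35 measured, 21 were positive with a median of 0.018, 1 had all dusk arrays above and 5 had all dusk arrays below the dawn arrays, beside 4.48% and 4.86% of all probe sets. Those 5 were Obp99b, Obp73a, Obp46a, Obp19a and Obp83b. Obp99b had 5.42, 5.41 and 5.65 around dusk, against 5.79, 5.97 and 5.74 around dawn, a difference of -0.34 ± 0.11 (SE, 95% interval -0.57 to -0.12). In LD, Obp99b had a difference of 0.12 in the other direction, and the difference between days did not pass (adjusted p = 0.999, limma). Of the 58 Cpr cuticle genes, 22 were positive and the median was -0.023, with 2 having all dusk arrays above and 6 having all below, beside the same 4.48% and 4.86%.

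Genes of basic metabolism had small medians in DD. Of 17 lipid genes 5 were positive (median -0.033), of 39 proteasome genes 11 (median -0.038), of 64 oxidative phosphorylation genes 25 (median -0.012), and of 37 ribosomal protein genes 19 (median 0.001). None of these genes passed. In LD the medians of the same lists were 0.058, 0.032, 0.105 and 0.096, all above 0. The dawn array ZT2 was the lowest LD array in mean level for the proteasome (-0.032), oxidative phosphorylation (-0.159) and ribosomal protein lists (-0.075). For the lipid list ZT2 stood at 0.109. In the lipid list, the fatty acid synthase gene FASN2 had 3.24, 3.31 and 3.28 around dusk, against 3.50, 3.40 and 3.68 around dawn, with no overlap. Lpin, a phosphatase on the route to stored fat, also had all dusk arrays below all dawn arrays, with a difference of -0.12. FASN2 and Lpin were 2 of 17 lipid genes, beside 4.86% of all probe sets. Leaving out CT2 left 16 of the 64 oxidative phosphorylation genes positive, with a median of -0.057.

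**Figure D4:**
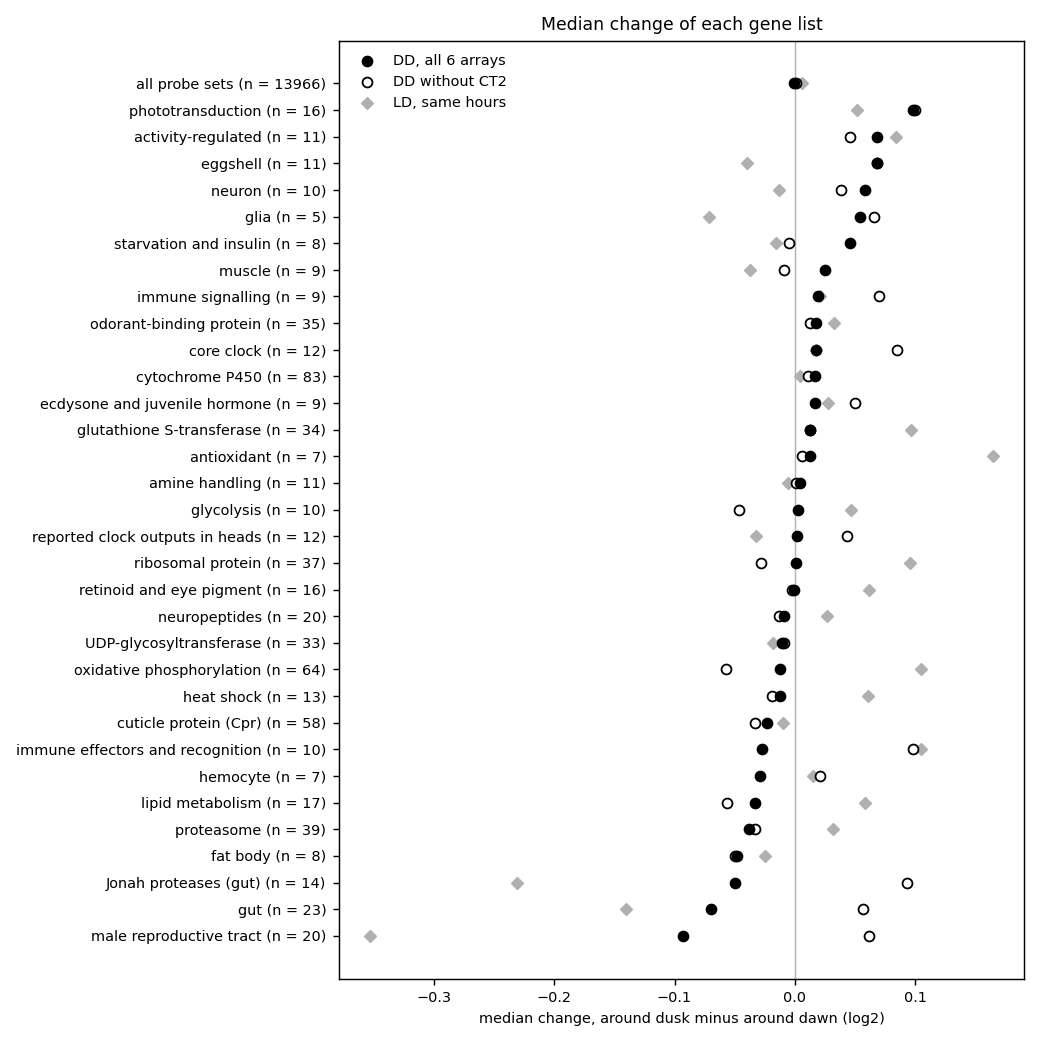
Median change, around dusk minus around dawn (log2, horizontal axis), for each gene list with 5 or more measured members and for all probe sets. Filled circles are the 6 DD arrays, open circles DD without CT2 and diamonds the same hours in LD; phototransduction has the highest DD median, 0.098, and the gut, male reproductive tract and immune effector lists are among those that change sign when CT2 is left out.

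Most of the largest DD differences by size came with a high value on CT2. Of 15 probe sets with a difference over 0.5 in size, 13 had CT2 as their highest DD array, and 3 of the 15 had a difference over 0.5 in size without CT2, 2 of them with the opposite sign. They are described here after their values were seen. EbpII, a protein of the male ejaculatory bulb, had 2.62, 2.79 and 2.46 around dusk, against 2.89, 2.57 and 6.23 around dawn, a difference of -1.27, and -0.10 without CT2. Mst57Da, a male accessory gland gene, had 3.90, 4.29 and 3.86 around dusk, against 3.84, 3.96 and 6.50 around dawn. Jon65Aiv, a digestive protease of the gut, had 5.96, 6.08 and 5.95 around dusk, against 5.93, 6.08 and 7.80 around dawn. In all 3 of these genes CT18 and CT22 lay close to the dusk values and CT2 alone stood far above. Cyp4g1 was raised on CT6 as well, with 6.12, 4.53 and 3.95 around dusk, against 4.31, 3.89 and 8.47 around dawn. Without CT2, 16 probe sets had a difference over 0.5 in size.

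CT2 was the highest DD array for 18 of 23 gut genes and for 17 of 20 genes of the male reproductive tract. The mean level of the gut list lay between -0.102 and -0.0191 on the dusk arrays, against -0.123 to 0.271 on the dawn arrays, and that of the male list between -0.191 and -0.0403, against -0.215 to 0.411. The gut list had 4 of 23 positive differences (median -0.070) and the male list 4 of 20 (median -0.093). Without CT2 these were 14 of 23 (0.057) and 15 of 20 (0.062), so the sign of both lists rests on that array. In LD, ZT2 and ZT18, which both belong to the dawn group, carried the same transcripts, with male list levels of 0.741 and 0.290. Without CT2, 0 probe sets passed in DD, and 15 of 16 phototransduction genes were positive with a median of 0.10. With the mean level of the gut and male lists as a covariate, 0 passed in DD and 781 had an unadjusted p under 0.05.

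CG2121, MME1 and CarT, the 3 genes that passed between the same hours in LD, showed no matching difference in DD. CG2121 had 5.33, 5.59 and 5.73 around dusk in DD, against 5.65, 5.67 and 5.32 around dawn, a difference of 0.00 ± 0.13 (SE, 95% interval -0.28 to 0.29). In LD it had 6.64, 7.04 and 6.53 around dusk, against 5.53, 5.52 and 5.80 around dawn, a 2.17-fold difference with an adjusted p of 0.00464 (limma). All 3 dusk values in DD lay below every dusk value of LD. A second, dimmer probe set of CG2121 had 0.14 in DD and 0.04 in LD.

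MME1, a mitochondrial magnesium exporter gene, had 4.97, 5.03 and 4.80 around dusk in DD, against 4.996, 4.88 and 4.98 around dawn. Its DD difference was -0.02 ± 0.11 (SE, 95% interval -0.25 to 0.20), while that of LD was 0.77. CarT, which encodes a transporter that returns carcinine to photoreceptors for the recycling of histamine, had 2.99, 2.69 and 2.93 around dusk in DD, against 2.83, 2.90 and 3.06 around dawn. The CarT difference was -0.06 ± 0.12 in DD (SE, 95% interval -0.31 to 0.18) and 0.83 in LD. For these 3 genes the LD change lay outside the 95% interval of the DD change. They were chosen by that LD change, and the interval leaves out its error. In the main test of the difference between days, given next, none of the 3 passed. Without ZT18, 0 probe sets passed in LD.

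The test of the difference itself, the DD change minus the LD change, gave 0 of 13966 probe sets (0%), with 605 at an unadjusted p under 0.05 and a smallest adjusted p of 0.169 (limma). The 5 nearest were CG9837, CG2121, CarT, MME1 and Culd. CG9837 had the values given above in DD, where it was lower around dusk by 0.29, and in LD it had 5.25, 5.40 and 5.46 around dusk, against 4.71, 4.83 and 5.02 around dawn. Its groups did not overlap on either day, in opposite directions, and the difference of the changes was -0.80 ± 0.13 (SE). Without ZT2 the adjusted p of CG9837 was 0.0433 (limma), and it was then the 1 probe set that passed. Without ZT14, CarT and Arc2 passed, each with an adjusted p of 0.0224 (limma). With a 24 h cosine peaking at hour 10 in place of the half-cycle means, CG2121 (adjusted p = 0.00258) and MME1 (adjusted p = 0.0309) passed (limma).

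Culd, a membrane protein needed for the endocytic traffic of rhodopsin, had 7.80, 7.69 and 7.82 around dusk in DD, against 7.52, 7.48 and 7.76 around dawn. In LD it had 7.51, 7.34 and 7.35 around dusk, against 7.75, 7.81 and 7.75 around dawn. The change was 0.18 in DD and -0.37 in LD, and the difference of 0.55 had an adjusted p of 0.556 (limma). t, called tan, encodes the hydrolase that frees histamine and dopamine from their beta-alanyl conjugates. It had 7.20, 7.01 and 7.01 around dusk in DD, against 6.92, 6.97 and 6.83 around dawn, and 6.30, 5.56 and 5.91 around dusk in LD, against 6.14, 6.91 and 6.69 around dawn. Its DD arrays all lay at or above 6.83, and the low LD value at ZT10 had no counterpart at CT10. The difference between days for t did not pass (adjusted p = 0.999, limma).

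**Figure D5:**
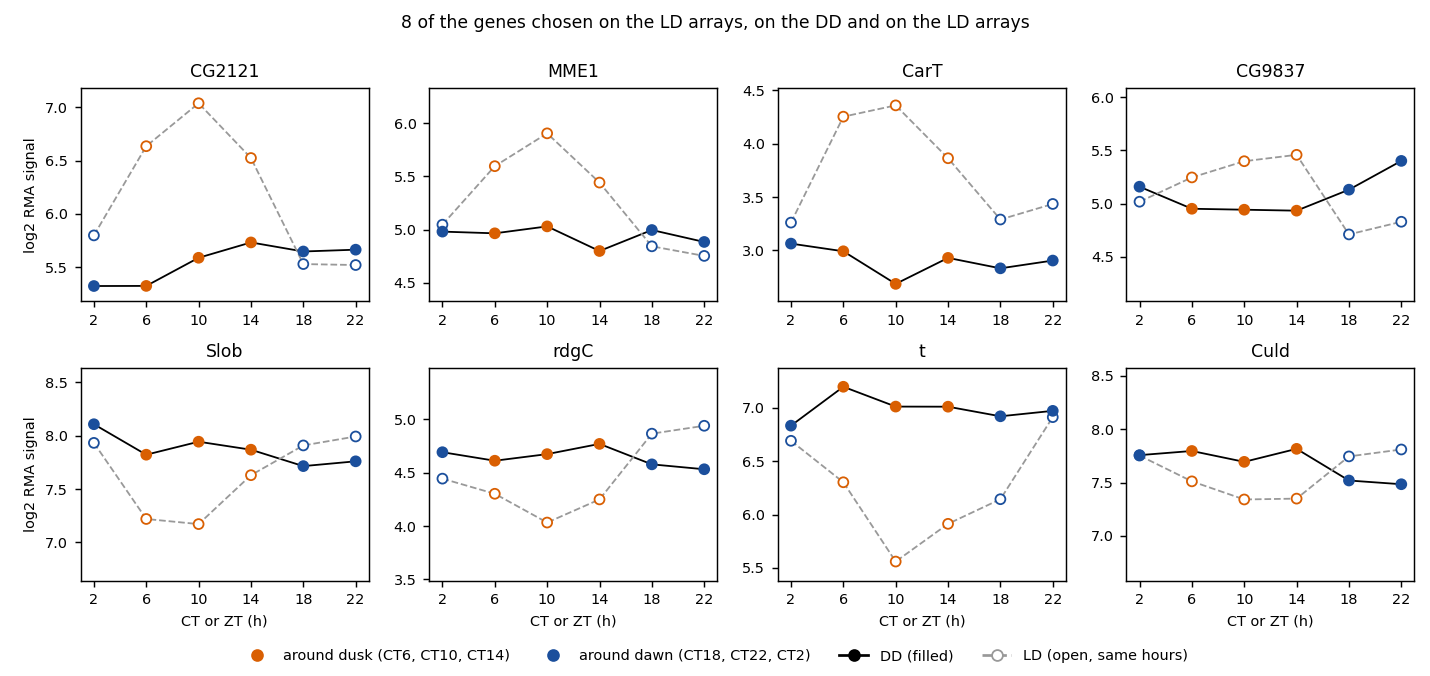
Log2 RMA signal (vertical axes, each spanning 2) of 8 genes that were among those chosen on the LD arrays, by CT or ZT in h (horizontal axes). Filled points on solid lines are DD arrays and open points on dashed lines LD arrays, coloured for around dusk and around dawn; CG2121 peaks at 7.04 on ZT10 and stays between 5.32 and 5.73 in DD.

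To look for a remnant of the LD courses, 100 probe sets in each direction were chosen by a fit to the 6 LD arrays alone and then read on the DD arrays. Of the 100 that were higher around dusk in LD, 56 were also higher in DD, with a median DD change of 0.012 against a median LD change of 0.332. In 5 of these 100 all DD dusk arrays lay above the dawn arrays, beside 4.48% of all probe sets. Of the 100 that were lower around dusk in LD, 71 were also lower in DD, with a median DD change of -0.061 against -0.318 in LD, and 8 had all DD dusk arrays below, beside 4.86%. None of the 200 passed in DD. A DD change of at least 0.5 times the LD change, in the same direction, was found for 5 of the 100 higher and 20 of the 100 lower probe sets. The share over all probe sets was not computed, so these 2 counts have no background to be read against.

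CT2 was the highest DD array for 47 of the 100 LD-lower probe sets, beside 18.8% of all, and 4 of these 100 were members of the gut or male lists. Without ZT2, ZT18 and CT2, ZT22 was the only LD dawn array, so the choice then set the LD dusk arrays against that single array. Chosen and read in this way, the shares were 66 of 100 on the higher and 56 of 100 on the lower side, with medians of 0.039 and -0.011. The larger share was then on the other side, but anything particular to ZT22 enters that choice. In that reading 16 of the 100 higher had all DD dusk arrays above, beside 10.3% of all probe sets. Of the 100 lower, 13 had all below, beside 10%. Over all probe sets the LD and DD changes correlated at 0.26, and at 0.172 without the 3 arrays. Examples on the higher side, named after their values were seen, were GstD3, a glutathione S-transferase with 0.03 in DD and 0.45 in LD, and spict with 0.15 and 0.36. spict, which encodes a regulator of BMP receptors in motor neurons, had no overlap on either day. On the lower side rdgC, the rhodopsin phosphatase, had 0.08 in DD and -0.56 in LD, and Slob had 0.02 and -0.60.

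The remaining lists held few genes each. Of 11 eggshell genes 9 were positive, with a median of 0.068, also without CT2. Of 10 neuronal genes 7 were positive (median 0.058), of 5 glial genes 4 (median 0.054) and of 11 activity-regulated genes 8 (median 0.068). Syn, the synapsin gene, had 2.94, 2.67 and 3.10 around dusk, against 2.45, 2.63 and 2.75 around dawn, with CT10 below CT2. The brighter neuronal gene nSyb went the other way, with a difference of -0.17 and overlapping groups. Heat shock (5 of 13 positive), neuropeptide (9 of 20), fat body (3 of 8), hemocyte (3 of 7) and UDP-glycosyltransferase genes (14 of 33) had medians between -0.048 and -0.009. None of the members of these lists passed in DD or for the difference between days.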

How the data were processed

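The deposited values are log2 signals that the authors made with RMA, per the submitters' processing notes; its version is not given in the sources used here. Because RMA gives the arrays almost the same distribution, a shift shared by most transcripts is invisible, and differences of dim probe sets are compressed. Of 14010 probe sets, 44 controls were left out. In GEO's platform annotation 12443 probe sets had 1 symbol, 327 had several and 1196 had none; only the first were named, and 12394 matched the RefSeq gene table by Entrez number.

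From these values, limma 3.58.1 in R 4.3.3 fitted 1 mean for each of 4 groups (DD and LD, around dusk and around dawn, 3 arrays each) to all 12 arrays, with the intensity trend (8 residual and 8.12 prior degrees of freedom). The steps were tested on simulated data. No pair of arrays shared more than 55 identical values. A list uses each gene's brightest probe set. Named were tim, the 10 smallest p and 5 widest gaps per direction, clock genes, up to 4 members per list and the 5 smallest p of the difference between days. Members, lists and rules were chosen with earlier results of these data known. Other processing choices tried are given with their effect at the end. No genome or sequence table was used, so no positions or sequences are given.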

Additional observations from a re-analysis of the deposited data

How the results depend on the processing

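The DD count stayed at 0 under every alternative run: DD arrays alone, no intensity trend, robust moderation, array weights, the brighter probe sets only, 2 further normalizations, a slope per day, a 24 h cosine, covariates for gut and male transcripts or RNA quality, clock hour as a block, and each array left out in turn. The smallest adjusted p over these was 0.0638, without CT10, and the number at an unadjusted p under 0.05 ran from 308 (fewer probe sets tested) to 1039. Over all named probe sets, 0 of 4070 recomputed values passed and 61 changed sign; over the gene lists, 107 of 874 medians changed sign. Arrays carry no replicate numbers in their labels; clock hour as a random replicate block gave 0 for DD (669 unadjusted) and, random or fixed, 0 for the difference between days. The LD count of 3 moved to 1 with LD arrays alone, 7 with robust moderation and 8 with array weights. It moved to 105 with a slope per day, 18 with the cosine and 5 with the gut and male covariate. Of the 105, 21 were higher and 84 lower, and the lower ones included gut and male genes such as Mal-A1, alphaTry, Mst57Da and EbpII. Leaving out 1 array gave 0 to 7. With ZT2, ZT18 and CT2 all left out, ZT22 was the only LD dawn array, so no LD count is given for that setting. The difference count moved to 2 with the cosine, and 0 to 2 with 1 array left out. The shares of LD-chosen probe sets with the same DD direction moved to 66% (higher) and 56% (lower) without the 3 arrays. The causes were not tested.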
